A study of Colocasia esculenta with 9 samples.

Results

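The taro cultivar Sam-07, also called Samasama, was compared with 2 other cultivars of Colocasia esculenta, Niue and Palau 10 (also called Ngerruuch), by RNA-seq of leaf. The comparison rests on 3 Sam-07 libraries of 9 in all, set against 3 libraries of Niue and 3 of Palau 10. A gene model was called set apart when Sam-07 differed, in 1 direction, from the mean of the other cultivars, from Niue and from Palau 10, each at an adjusted p under 0.05 in a fit of all 9 libraries. By this rule 88 gene models of 57034 in the annotation were set apart, 29 higher and 59 lower in Sam-07. All plants were raised from tissue culture and grown for 8 months in a chamber at 27 °C, 85% humidity and a 12 h photoperiod. RNA came from the 2 youngest leaves of vegetative plants, and no plant was treated. The labels do not say whether libraries of a cultivar came from separate plants, so p-values speak only of the spread among these libraries, and that spread may be technical.

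Taro is an aroid crop that is propagated from corm pieces and suckers, so a cultivar is a clone whose alleles pass largely unchanged from plant to plant. Cultivars of a clonal crop can differ in the level at which a gene is transcribed, in whether a gene is present at all, and in how closely their allele matches a reference sequence. Counts of RNA fragments against 1 reference record each of these as a difference in fragment number. Young leaves are building their photosynthetic tissue. Leaves of taro are attacked by taro leaf blight, caused by the oomycete Phytophthora colocasiae, which was not studied here.

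No name, product or sequence goes with any gene model in the files. Identifier, scaffold, position and exon number are therefore what is given, no function is ascribed to any gene model, and the leaf label could not be checked against marker genes. Levels are CPM, the fragments of a gene model per 1e+06 assigned fragments of a library after TMM scaling. They are not divided by length, so they are compared between libraries and not between gene models. In whole leaf, fewer cells of a type and less RNA per cell cannot be told apart. Between 5468567 and 18175384 fragments per library were assigned to gene models. A gene model with 0 fragments in the 3 libraries of a cultivar could still be present at up to 0.0770 CPM in Sam-07, 0.114 CPM in Niue or 0.0651 CPM in Palau 10, which is the level of 3 fragments over the group. These limits and the intervals below cover counting error only.

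Sam-07 replicate 2, the deepest library, lay apart from its group. On log2(CPM + 1) over all gene models its distance was 132.3 from Sam-07 replicate 1 and 128.6 from replicate 3, which were 87.6 from each other. Its nearest library was Niue replicate 3, at 97.9. Niue replicate 2 was also nearest to a library of another cultivar, Palau 10 replicate 2 at 85.1, with Niue replicate 4 at 86.4 and Niue replicate 3 at 96.3. Palau 10 replicate 3 also stood apart, with its nearest library, Sam-07 replicate 3, at a distance of 146. Results are therefore given with and without Sam-07 replicate 2, and with Palau 10 replicate 3 left out where that moves them.

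The main question was in which gene models Sam-07 differed from both other cultivars, and how far. Of 18865 gene models tested, 241 differed between Sam-07 and the mean of Niue and Palau 10, which is 1.28% of those tested (edgeR's quasi-likelihood test, Benjamini-Hochberg adjusted p under 0.05). Of these, 145 were higher in Sam-07 (0.769% of those tested) and 96 were lower (0.509%). The 88 set apart from each cultivar were 0.466% of those tested, with 0.154% higher and 0.313% lower. In all 88 the 3 Sam-07 libraries lay outside the range of the 6 other libraries, against 4.33% of all tested gene models (2.28% above and 2.04% below). The same libraries chose the 88, so this follows largely from the rule and is no separate support. Summed over the 29 higher members, Sam-07 replicates 1, 2 and 3 held 648, 700 and 630 CPM. The same sum was 69.9, 75.9 and 70.8 CPM in Niue replicates 2, 3 and 4, and 72.3, 59.0 and 56.5 CPM in Palau 10 replicates 1, 2 and 3. Over the 59 lower members Sam-07 held 118, 99.9 and 104 CPM. Niue held 1159, 927 and 1047 CPM of these, and Palau 10 held 891, 993 and 876 CPM. At these members, which its own values helped to choose, Sam-07 replicate 2 was close to the other Sam-07 libraries in both sums. With 1 library left out, 49, 54 or 46 remained set apart when it was Niue replicate 2, 3 or 4, and 49 or 45 when it was Sam-07 replicate 1 or 3. All of these were among the 88 except 4 of the 54. The number called in the contrast was 139 or 136 without Niue replicate 2 or 4, 159 without Palau 10 replicate 1, 368 without Palau 10 replicate 3, and 128 or 132 without Sam-07 replicate 1 or 3.

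**Figure D1:**
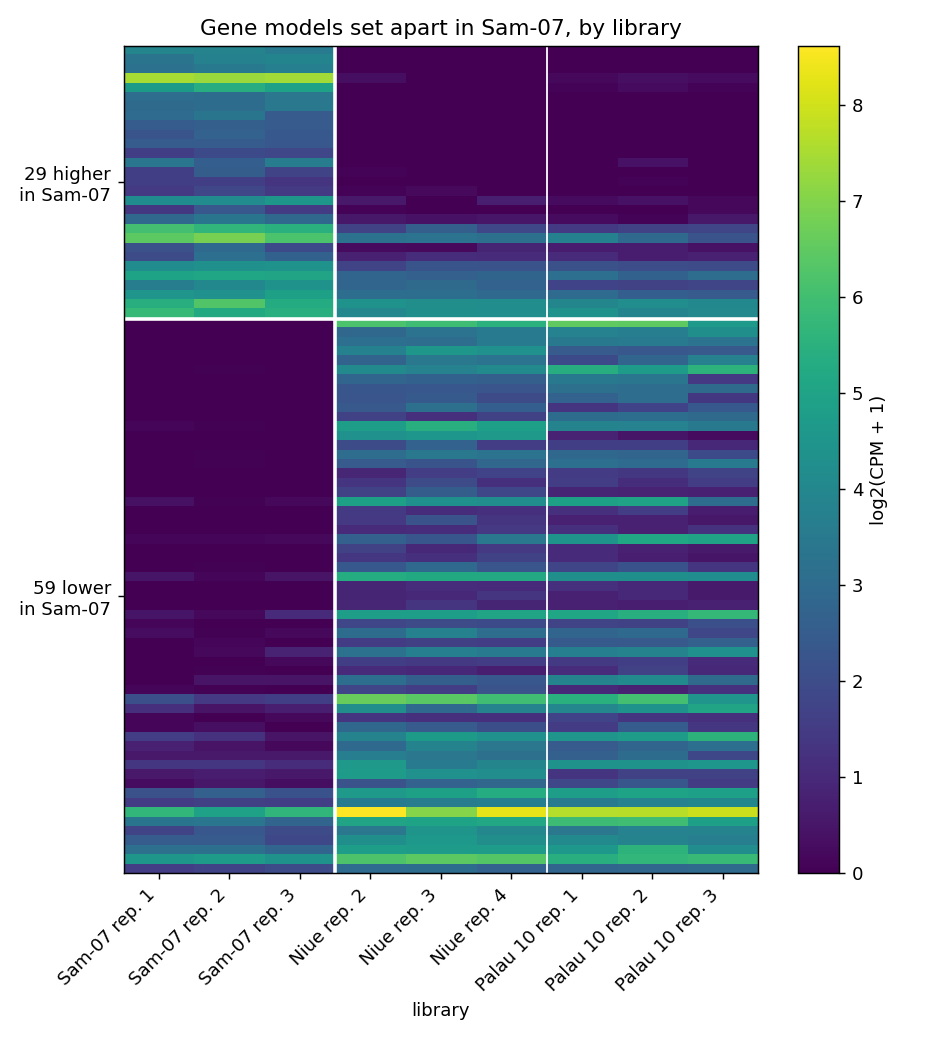
Level of the 88 gene models set apart in Sam-07 in each of the 9 libraries, as log2(CPM + 1), 1 row per gene model, ordered within each direction by the size of the fitted log2 fold change. The upper 29 rows are brighter in the 3 Sam-07 columns and the lower 59 rows are darker there, with the strongest contrasts at or near 0 in all libraries of the darker side.

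Many of the members were present on 1 side and absent, or almost absent, on the other. Of the 29 higher members, 10 had no fragment in any of the 6 Niue and Palau 10 libraries, a further 6 had 1 to 10 fragments over these 6 libraries together, and 13 had more. All 10 were at 1 CPM or more in each Sam-07 library, and 5 of them were at 5 CPM or more in each. Of the 59 lower members, 23 had no fragment in any Sam-07 library, 17 had 1 to 10 fragments over the 3, and 19 had more. Of the 23, 11 were at 1 CPM or more in every Niue and Palau 10 library, and 3 were at 5 CPM or more in every one. Of all 18865 tested gene models, 89 had no fragment in Sam-07, 84 had none in Niue and 115 had none in Palau 10. No such count is given for Niue and Palau 10 together or for 1 to 10 fragments. The 10, the 6 and the 17 therefore have no matching share over all tested gene models. A gene model without a fragment on 1 side passed the filter on low counts only through the other side. The rule also favours large differences, so these counts follow in part from the choice. The few fragments of the 17 were spread over the Sam-07 libraries, with 15 in replicate 1, 24 in replicate 2 and 14 in replicate 3. The median log2 difference was 6.72 for the higher and -6.5 for the lower members as fitted, and 5.7 and -4.8 with groups without a fragment set at their limit, against a median size of 0.25 over all tested gene models. The choice of members fixes the direction and much of the size of these medians. The 10 became 5, 6 and 5 without Niue replicate 2, 3 or 4. They became 3, 4 and 1 without Sam-07 replicate 1, 2 or 3.

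Among gene models present in Sam-07 and not detected elsewhere, Taro_010789 had the largest fitted difference. It has 4 exons on the plus strand of TARO_scaffold_000396, from 35966 to 39294. It had 14.1, 13.3 and 10.8 CPM in Sam-07 replicates 1, 2 and 3, from 137, 285 and 85 fragments, and no fragment in any Niue or Palau 10 library. The mean of 12.8 ± 1.74 CPM in Sam-07 (SD, n = 3) was at least 112-fold higher than the Niue level and at least 196-fold higher than the Palau 10 level. Taro_044105, with 2 exons on the minus strand of TARO_scaffold_004899 from 1457 to 2081, had 8.96, 12.6 and 13.7 CPM in the Sam-07 libraries and likewise no fragment in the other 6. Its mean of 11.8 ± 2.49 CPM in Sam-07 was at least 103-fold higher than the Niue level and at least 181-fold higher than the Palau 10 level. The contrast had an adjusted p in edgeR's quasi-likelihood test of 0.0022 for Taro_010789 and 0.0028 for Taro_044105. Sam-07 replicate 2 was not apart from the other Sam-07 libraries at either.

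The largest difference in the other direction was at Taro_019470, with 7 exons on the plus strand of TARO_scaffold_000940 from 2794 to 6192. No Sam-07 library had a fragment of it. Niue replicates 2, 3 and 4 had 71.1, 60.8 and 43.9 CPM, and Palau 10 replicates 1, 2 and 3 had 90.5, 88.1 and 23.8 CPM. The lowest of these 6 libraries, Palau 10 replicate 3, still held 358 fragments. In Sam-07 the level of Taro_019470 was at least 761-fold lower than that of Niue and at least 876-fold lower than that of Palau 10 (adjusted p = 0.0027 for the contrast in edgeR's quasi-likelihood test). Taro_044957, with 3 exons on the plus strand of TARO_scaffold_005180 from 73672 to 75205, also had no fragment in Sam-07. It had 6.28, 8.78 and 10.7 CPM in Niue and 13.02, 11.9 and 18.7 CPM in Palau 10. In Sam-07 it was at least 112-fold lower than Niue and at least 189-fold lower than Palau 10 (adjusted p = 0.00079 in edgeR's quasi-likelihood test). Whether such a gene model is not transcribed, absent from the cultivar or too different from the reference to be counted cannot be told apart here.

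A smaller part of the members was measured on both sides. A fragment was found in all 9 libraries for 33 of the 88 members, 11 higher and 22 lower, against 94.8% of all tested gene models. Their fitted log2 differences ran in size between 1.39 and 4.51 for the higher and between 1.4 and 7.21 for the lower members. The number was 21 or 20 without Niue replicate 2 or 4, 65 without Palau 10 replicate 3 and 19 without Sam-07 replicate 3. Taro_006130 (TARO_scaffold_000180, 57412 to 62529, plus strand, 5 exons) had the largest difference among the 11. It had 6.39, 9.22 and 6.34 CPM in Sam-07, against 0.453, 0.325 and 0.429 CPM in Niue and 0.187, 0.0669 and 0.465 CPM in Palau 10. The lower side rests on 11 fragments in Niue and 11 in Palau 10. The fitted log2 fold change of the contrast was 4.51 (SE 0.43, adjusted p = 0.0017 in edgeR's quasi-likelihood test). Taro_033711 (TARO_scaffold_002595, 78452 to 99536, plus strand, 12 exons) had 64.4, 50.2 and 43.3 CPM in Sam-07. Niue had 2.26, 5.04 and 2.57 CPM of it and Palau 10 had 1.75, 2.27 and 2.46 CPM. Its log2 fold change was 4.31 (SE 0.27, adjusted p = 0.00029 in edgeR's quasi-likelihood test), from 78 fragments in Niue and 99 in Palau 10, and no library of 1 side came near the other.

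Among the 22 lower members with a fragment in every library, Taro_031984 differed most. It lies on the minus strand of TARO_scaffold_002321, from 93466 to 95670, with 3 exons. It had 0.309, 0.0468 and 0.127 CPM in Sam-07, from 3, 1 and 1 fragments, against 28.5, 18.9 and 17.6 CPM in Niue and 28.5, 30.1 and 7.50 CPM in Palau 10. The ratio of pooled fragments was 189 for Niue over Sam-07 (95% counting interval 80.6 to 585) and 173 for Palau 10 over Sam-07 (73.7 to 532). The contrast had a log2 fold change of -7.21 (SE 0.76, adjusted p = 0.0027 in edgeR's quasi-likelihood test). Taro_045634 is a gene model of 1 exon on the minus strand of TARO_scaffold_005424, from 42089 to 42916. It had 0.103, 0.0937 and 0.127 CPM in Sam-07, from 1, 2 and 1 fragments. In Niue it had 5.18, 3.90 and 9.86 CPM, and in Palau 10 21.2, 33.8 and 29.9 CPM. The pooled ratio was 55.6 for Niue over Sam-07 (21.3 to 207) and 274 for Palau 10 over Sam-07 (107 to 1008). Its log2 fold change was -6.87 (SE 0.49, adjusted p = 0.00055 in edgeR's quasi-likelihood test). At the other end of the range over all members of both directions was Taro_004207, a higher member chosen for the smallest fitted difference. It averaged 44.1 ± 9.13 CPM in Sam-07, 17.03 ± 1.997 CPM in Niue and 16.6 ± 3.36 CPM in Palau 10 (SD, n = 3 each).

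**Figure D2:**
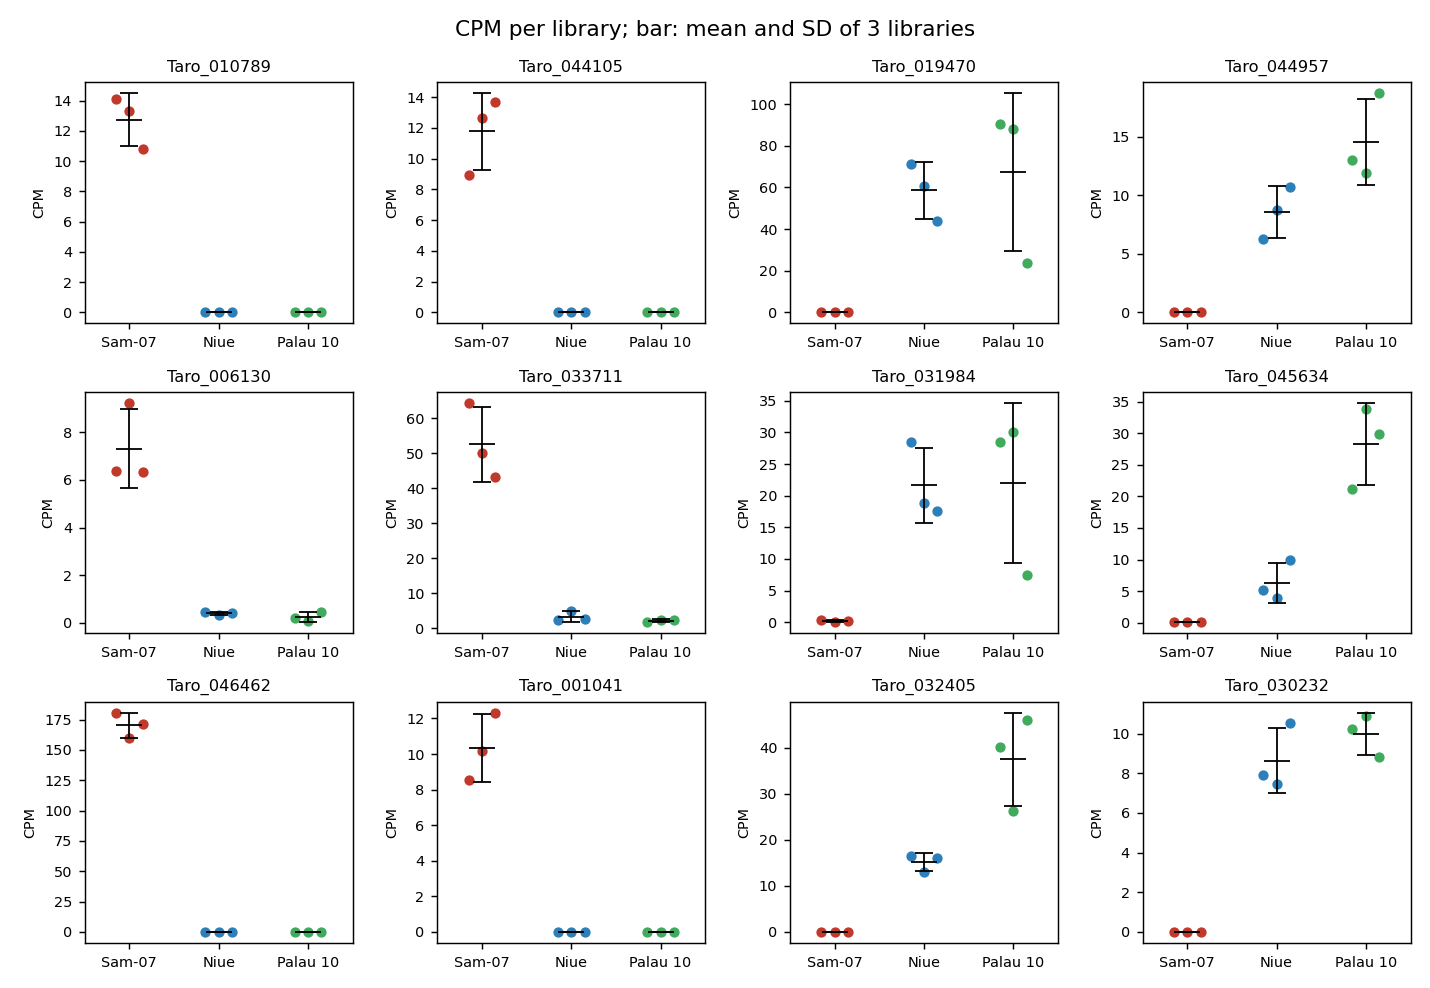
CPM of 12 gene models in each library, with the mean and SD of 3 libraries as a bar, Sam-07 at the left of each panel, then Niue and Palau 10. By the rule that chose these gene models, all 3 Sam-07 points lie above or below all 6 others in each panel. The points of Palau 10 in Taro_019470 spread widely, between 23.8 and 90.5 CPM, and the Sam-07 points still lie below them.

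Not every gene model that differed from the mean of the other cultivars set Sam-07 apart from each of them. Sam-07 and Niue differed in 1.22% of all tested gene models (0.461% higher, 0.758% lower in Sam-07), and Sam-07 and Palau 10 in 1.73% (0.848% higher, 0.885% lower). Of the 145 higher in the contrast, 29 were called against both cultivars, 32 against Niue alone, 68 against Palau 10 alone and 16 against neither. Of the 96 lower, 59 were called against both, 15 against Niue alone and 22 against Palau 10 alone. A difference called against 1 cultivar alone is not shown to be absent against the other. All 96 lower gene models had the same sign in both pairs, as had 118 of the 145 higher ones. Palau 10 and Niue themselves differed in 1.81% of all tested gene models, 0.625% higher and 1.18% lower in Palau 10 (adjusted p under 0.05 in edgeR's quasi-likelihood test). They differed in 72 of the 145, 17 of the 96 and 5 of the 88 set apart. The share in the 88 was lower than in the 145 or the 96 but above that of all tested gene models. Members had to differ from both, so the lower share follows in part from the rule. The same rule applied to the other cultivars in the same fit gave 113 gene models for Niue, 71 higher and 42 lower, and 148 for Palau 10, 50 higher and 98 lower. These counts share libraries and were not tested against each other.

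**Figure D3:**
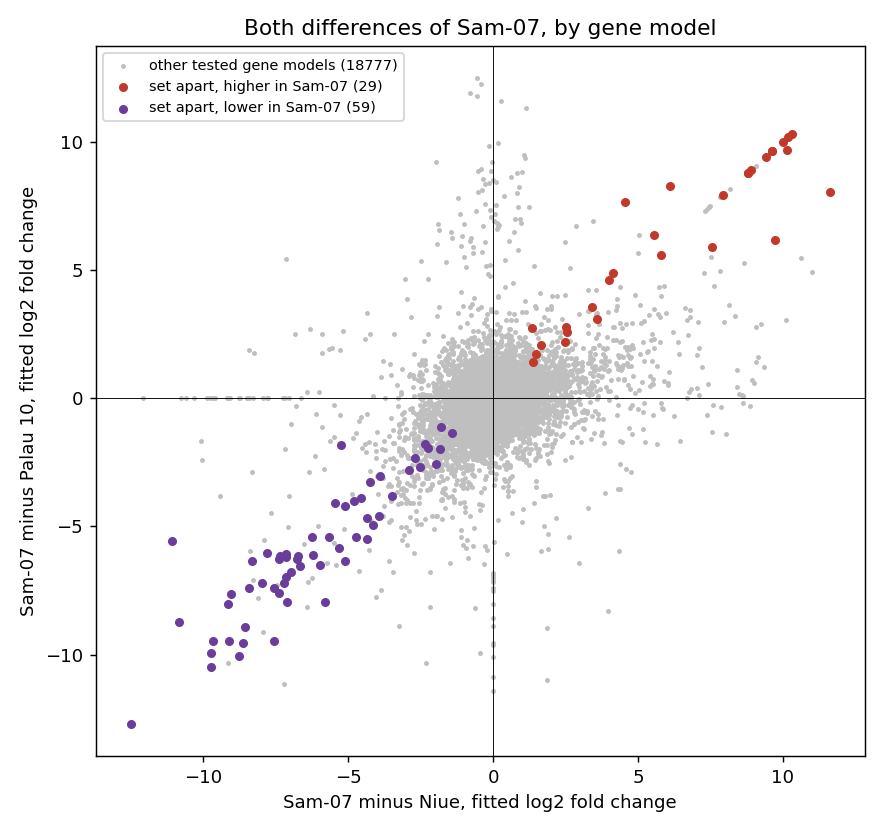
Fitted log2 fold change of Sam-07 minus Niue (horizontal) and of Sam-07 minus Palau 10 (vertical) for each tested gene model, with the 88 members coloured. Both axes use the same 3 Sam-07 libraries, so some likeness between them is built in; the 29 higher members lie at the upper right, the 59 lower ones at the lower left, and many grey points far from 0 on 1 axis lie near 0 on the other.

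The 5 members at which Niue and Palau 10 also differed were singled out for that reason. Taro_043727 (TARO_scaffold_004791, 84010 to 89849, plus strand, 10 exons) had no fragment in Sam-07, 21.7 ± 2.34 CPM in Niue and 0.470 ± 0.311 CPM in Palau 10. Taro_029547 (TARO_scaffold_001969, 202596 to 208918, minus strand, 5 exons) had no fragment in Sam-07, 18.3 ± 5.07 CPM in Niue and 4.31 ± 0.273 CPM in Palau 10. Taro_023123, with 2 exons on the minus strand of TARO_scaffold_001249 from 201736 to 202408, had 0.544 ± 0.0564 CPM in Sam-07, 21.1 ± 4.33 CPM in Niue and 2.01 ± 0.444 CPM in Palau 10. In these 3 lower members Palau 10 stood between Sam-07 and Niue. In Taro_045634, described above, Niue stood between Sam-07 and Palau 10. The 1 higher member, Taro_048534, lies with 3 exons on the minus strand of TARO_scaffold_006589 from 67844 to 69096. It had 15.8 ± 4.49 CPM in Sam-07, 6.12 ± 0.642 CPM in Niue and 2.37 ± 0.136 CPM in Palau 10. The log2 fold change of Palau 10 minus Niue was -5.49, -2.08, -3.39, 2.18 and -1.37 for these gene models in the order given, with adjusted p of 0.0037, 0.021, 0.0011, 0.017 and 0.041 in edgeR's quasi-likelihood test. Of these 5, only Taro_029547 and Taro_045634 were still set apart without Sam-07 replicate 2.

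Leaving out Sam-07 replicate 2 gave a shorter list, most of it shared with the list from all libraries. In the fit of the other 8 libraries 215 gene models were called in the contrast (1.12% of 19197 tested), 135 higher (0.703%) and 80 lower (0.417%) in Sam-07. Set apart were 66 (0.344%), 24 higher (0.125%) and 42 lower (0.219%). Of the 88 members found with all 9 libraries, 50 were kept, 15 higher and 35 lower. The 38 that were lost all kept their sign in the contrast and in both pairs, and 25 of them were still called in the contrast. The largest of their 3 adjusted p-values (edgeR's quasi-likelihood test) lay between 0.052 and 0.14. Of the 16 gained, 9 were higher and 7 lower. The 215 became 57, 41 and 46 when Niue replicate 2, 3 or 4 was left out as well, 118 and 115 with Palau 10 replicate 1 or 2 left out, and 1146 with Palau 10 replicate 3 left out. The 66 became 13, 22 and 13 without Niue replicate 2, 3 or 4, 34 and 31 without Palau 10 replicate 1 or 2, and 281 without Palau 10 replicate 3.

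Because the 66 gene models were chosen without Sam-07 replicate 2, its values there are a measurement that the choice did not use. Sam-07 replicate 2 lay outside all 6 Niue and Palau 10 libraries, on the side of the other Sam-07 libraries, in 56 of the 66, or 84.8% (95% exact binomial interval 73.9% to 92.5%). It was below all 6 in 41 of the 42 lower gene models, against 14% of all tested gene models. It was above all 6 in 15 of the 24 higher ones, against 18.8% of all tested gene models. When Sam-07 replicate 1 was left out instead, it lay on the Sam-07 side in all 49 gene models chosen without it, 12 higher and 37 lower. For Sam-07 replicate 3 this was so in all 45, 9 higher and 36 lower. Over all tested gene models replicate 1 was above all 6 in 16.4% and below in 12.8%, and replicate 3 was above in 14.1% and below in 15.3%. The gene models chosen without replicate 1 or 3 had to pass with replicate 2, so the 3 counts are not read on the same list. The gene models share these libraries and are not independent, so the interval describes the count only.

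The 10 gene models at which Sam-07 replicate 2 did not lie on the Sam-07 side of all 6 other libraries were mostly in 1 direction. In the 9 higher ones its level was within the range of the 6 other libraries in 5 and below all of them in 4. Where it had a fragment, the mean of replicates 1 and 3 was between 6.46 and 522 times its level. On a scale from 0, the mean of the other cultivars, to 1, the mean of Sam-07 replicates 1 and 3, its position at these 9 ran between -1.05 and 0.15. The 1 lower gene model was Taro_034691, singled out for that reason, with 3.92 CPM in Sam-07 replicate 1, 13.1 CPM in replicate 2 and 3.55 CPM in replicate 3, against 9.64 to 13.3 CPM in the 6 other libraries. Over all 66, the median position of replicate 2 was 0.98, and that of replicates 1 and 3, each at its own list, was 1. Replicate 2 was nearer to the other Sam-07 libraries than to the other cultivars in 51 of the 66, replicate 1 in 49 of 49 and replicate 3 in 45 of 45. Some lower gene models counted on the Sam-07 side were thus nearer to the other cultivars in replicate 2, such as Taro_015579 at 0.27 and Taro_025903 at 0.41. With Palau 10 replicate 3 also left out of the choice, 281 gene models were set apart, 148 higher and 133 lower. Sam-07 replicate 2 lay on the Sam-07 side of all 6 Niue and Palau 10 libraries in 45.6% of the 281, 38 higher and 90 lower. Palau 10 replicate 3 was still among these 6, so the share also depends on that library. Over all gene models tested without Sam-07 replicate 2, it was above all 6 in 18.8% and below in 14%. The part of the plant, the handling or the labelling in the distance of this library was not tested.

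**Figure D4:**
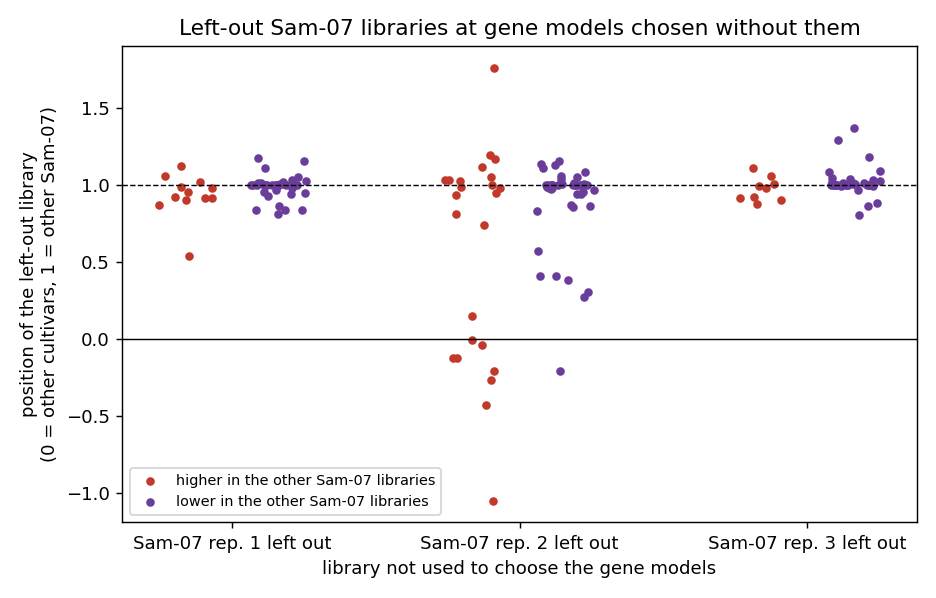
Position of each Sam-07 library at the gene models chosen without it, between the mean of Niue and Palau 10 (0) and the mean of the 2 other Sam-07 libraries (1), on log2(CPM + 1); 1 point per gene model, gene models higher in Sam-07 in red and lower ones in purple. Replicates 1 and 3 lie at 0.54 or more at every point, whereas replicate 2 has 9 higher gene models between -1.05 and 0.15. It also has lower gene models far from 1, such as Taro_034691 at -0.21 and Taro_015579 at 0.27.

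The largest fitted differences in each direction were at the same gene models with and without Sam-07 replicate 2, in fits that share all other libraries. Taro_010789 and Taro_044105 remained the largest of the higher ones and Taro_019470 the largest of the lower ones. Apart from those already named, the largest at 5 CPM or more were Taro_046462 and Taro_001041 in the higher and Taro_032405 and Taro_030232 in the lower direction, and all 4 were also among the 88. Not every large difference was shared. Taro_049753 and Taro_040978, with log2 fold changes of 9.57 and 7.08 without replicate 2, had 0 and 1 fragments in that library and were not among the 88. Taro_046462, with 10 exons on the minus strand of TARO_scaffold_005727 from 11654 to 16900, had 180.0, 159.7 and 171 CPM in Sam-07. It had 4, 0 and 0 fragments in Niue replicates 2, 3 and 4 and 2, 4 and 3 fragments in Palau 10 replicates 1, 2 and 3. The ratio of pooled fragments was 1097 for Sam-07 over Niue (95% counting interval 428.3 to 4028) and 855 for Sam-07 over Palau 10 (450.1 to 1871). Its log2 fold change was 9.92 with replicate 2 and 9.94 without it, with adjusted p of 3.7e-05 and 0.00026 in edgeR's quasi-likelihood test.

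Taro_001041, with 4 exons on the minus strand of TARO_scaffold_000021 from 233907 to 234939, had 8.55, 10.2 and 12.3 CPM in Sam-07 and no fragment elsewhere. It was at least 90.6-fold higher than the Niue level and at least 159-fold higher than the Palau 10 level. Its adjusted p in edgeR's quasi-likelihood test was 0.0028 with replicate 2 and 0.026 without it. Taro_032405 (TARO_scaffold_002392, 109002 to 114178, minus strand, 11 exons) had 1 fragment in Sam-07, in replicate 2. Niue had 255, 80 and 75 fragments of it and Palau 10 had 643, 394 and 693. The pooled ratio was 608 for Niue over Sam-07 (95% counting interval 109 to 24060) and 1462 for Palau 10 over Sam-07 (262 to 57800), so its size is known only within a wide range. Taro_030232 (TARO_scaffold_002064, 51932 to 56243, minus strand, 4 exons) had no fragment in Sam-07, against 7.89, 7.48 and 10.5 CPM in Niue and 10.2, 10.9 and 8.83 CPM in Palau 10. Its level in Sam-07 was at least 112-fold lower than that of Niue and at least 130-fold lower than that of Palau 10. Both lower gene models kept their call without replicate 2, each with an adjusted p of 0.0024 in edgeR's quasi-likelihood test, against 0.00016 for Taro_032405 and 0.00058 for Taro_030232 with it.

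The libraries of the other cultivars were read in the same way. Each was left out, and its level was set against the 3 Sam-07 libraries at the gene models chosen without it. Niue replicates 2 and 4 and Palau 10 replicates 1 and 2 lay on their own side at all of 49, 46, 59 and 62 gene models. Niue replicate 3 did so at 52 of 54, and Palau 10 replicate 3 at 113 of 126 (89.7%). Over all tested gene models, each direction counted separately, the Niue libraries lay beyond all 3 Sam-07 libraries in 22.4% to 25.4%. For Palau 10 replicates 1 and 2 this was 21.7% to 25.8%, and for Palau 10 replicate 3 it was 35% and 29.6%. The 3 Sam-07 libraries also helped to choose each of these lists. Without Palau 10 replicate 3 the number set apart rose to 126, 37 higher and 89 lower, of which 84 were among the 88. With both libraries that stood apart left out it was 281, 148 higher and 133 lower, of which 73 were among the 88.

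In structure, given as a description with no test, members had a median of 4 exons, against 5 over all tested gene models, and a median exon length of 1300 bp, against 1501 bp. Gene models with 1 exon made up 4.55% of members and 9.88% of all tested, and those with 6 or more exons 28.4% and 40.6%. The 29 higher members had a shorter median exon length, 983 bp, than the 59 lower ones, 1361 bp. Of the 88, 8 had a span, counted from first to last exon, that overlapped the span of another gene model in part or whole. Strand was not compared for this count, and 6 of the 8 shared exon bases with the other gene model. Of all 18865 tested gene models, 1283 overlapped in this way and 922 shared exon bases. The share overlapping was 9.09% of members and 6.8% of all tested. Strand was not set in the authors' counting, so fragments of either strand on unshared exon bases count for the gene model there.

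Most members stood alone on their scaffold. The 88 lay on 81 scaffolds, 5 scaffolds held more than 1, and none held members of both directions. Of 95 tested gene models that were next to a member without being one, 5 were called in the contrast (5.26%, against 1.28% of all tested), and their median difference in size was 0.3 on the log2 scale. In 4 runs, 10 members, or 11.4%, were next to another member of their direction with no other tested gene model between them. Over all tested gene models, 0.154% were higher members and 0.313% were lower members. Whether members lie together more often than other gene models was not tested. Without Sam-07 replicate 2 the share of members next to another was 6.06%, with 2 of the 4 runs left, and without Sam-07 replicate 3 it was 20%. All 4 runs are given here for their position.

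On TARO_scaffold_002216, Taro_031336, Taro_031337 and Taro_031338 followed each other from 174340 to 199626 and were all lower in Sam-07. Their means were 0.522, 0.301 and 0.0423 CPM in Sam-07, 28.8, 10.5 and 1.91 CPM in Niue, and 42.1, 14.97 and 1.60 CPM in Palau 10. The flanking Taro_031335, which ends at 166788, had 5.43 CPM in Sam-07, 6.56 CPM in Niue and 5.65 CPM in Palau 10 and was not called (log2 fold change -0.14). Taro_031337 and Taro_031338 lie on opposite strands and share 639 exon bases, on which fragments were counted for neither. Taro_031336 was still set apart without Sam-07 replicate 2 but Taro_031337 and Taro_031338 were not, so no run was left there. No tested gene model follows the run on the scaffold.

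On TARO_scaffold_008377, Taro_051687, Taro_051688 and Taro_051689 lay between 4838 and 18810 on the minus strand. Taro_051688 and Taro_051689 had no fragment in Sam-07, against 1.30 and 1.90 CPM in Niue and 1.10 and 1.69 CPM in Palau 10. Taro_051687 differed less, with 2.48 CPM in Sam-07, 6.67 CPM in Niue and 6.37 CPM in Palau 10. The next tested gene model, Taro_051690, had a log2 fold change of -0.12. Taro_051689 was the only one of the run still set apart without Sam-07 replicate 2. The members of the runs on the other 2 scaffolds were set apart with and without that library. On TARO_scaffold_000913, Taro_019125 and Taro_019126, between 57562 and 80529 on the minus strand, had no fragment in Sam-07. They had 5.80 and 8.15 CPM in Niue and 2.65 and 7.10 CPM in Palau 10. The next tested gene model, Taro_019128, starts at 157926 and had a log2 fold change of 0.3.

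The run in the higher direction was Taro_024086 and Taro_024087, of 2 exons each, on the minus strand of TARO_scaffold_001343 from 210673 to 219711. Taro_024086 had 18.8 CPM in Sam-07, against 3.26 CPM in Niue and 3.14 CPM in Palau 10, a log2 fold change of 2.56. Taro_024087 had 31.7 CPM in Sam-07, against 5.65 CPM in Niue and 6.92 CPM in Palau 10, a log2 fold change of 2.34. In edgeR's quasi-likelihood test their adjusted p was 0.00066 and 0.00055. Both were present in all 9 libraries, and neither flanking gene model was called.

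**Figure D5:**
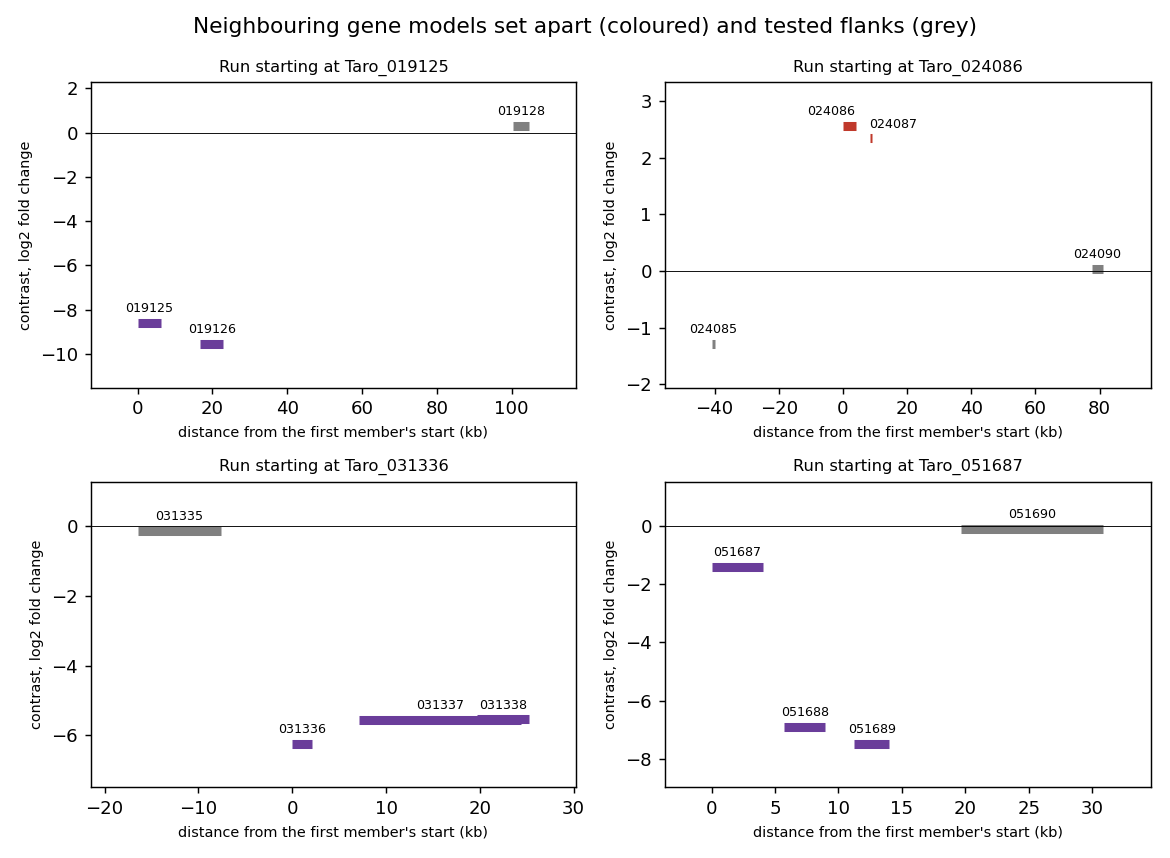
The 4 runs of neighbouring members: each bar is a gene model drawn from start to end by its distance from the start of the first member (kb), at the height of its log2 fold change in the contrast of Sam-07 against the mean of Niue and Palau 10. Coloured members lie away from 0 and the grey tested flanks lie near it, from -0.14 to 0.3, except Taro_024085 at -1.29, which was not called.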

How the data were processed

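RNA of leaf was sequenced in 9 libraries, 3 of each cultivar. CTAB extraction of 4 g of leaf, drying of the RNA for 40 h and a stranded TruSeq kit are named per the labels. Trimmomatic 0.33, STAR in a version written 3.5.0a, Subread 1.4.6 and bcl2fastq 1.8.4 were used, per the submitters' processing notes. The deposited values are counts of read pairs per gene model, summed over exons with featureCounts 1.4.6-p4, per the file headers. The recorded command set no strand and counted no fragment that mapped to several places or overlapped more than 1 gene model, so near-identical gene families and overlapping gene models are undercounted. The genome build was not given in the sources used here. Coordinates are those of the files, counted from 1.

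Cultivar and replicate came from the titles. A chi-square comparison over gene models with at least 20 fragments found no pair of replicates that differed by sampling noise alone. Counts were tested as deposited in R 4.3.3 with edgeR 4.0.16 (glmQLFit and glmQLFTest, two-sided, TMM factors, filterByExpr with minimum count 10 and minimum total 15), with cultivar as the only term and all 9 libraries in 1 fit. The contrast was Sam-07 minus the mean of the Niue and Palau 10 coefficients. Benjamini-Hochberg adjusted p-values under 0.05 over all tested gene models were called. Approximate standard errors come from the fold change and its F statistic. Folds against a group without a fragment are lower bounds, with 3 fragments over the group as the floor. The members, lists and tests were chosen with earlier results of these data known.

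Gene models were named by a rule: set apart, at least 5 CPM on the higher side, all Sam-07 libraries outside the other 6, and the 2 largest fitted differences in each direction among all, among those with a fragment in all 9 libraries, and without Sam-07 replicate 2. Others are named where the text says why. Tried as alternatives were DESeq2 1.42.0, RLE factors, scaling by library size, no filter on low counts, a filter at 10 CPM in 3 libraries, a replicate block, robust estimation, a 2-fold threshold, removal of 5 abundant gene models, the 6 other libraries as 1 group, other rules for membership and presence, and leaving out each library. Leaving out Sam-07 replicate 2 and Palau 10 replicate 3 together was chosen after seeing the data.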

Additional observations from a re-analysis of the deposited data

How the results depend on the processing

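RLE factors, library size only, no filter on low counts, robust estimation and removal of the 5 abundant gene models left each total within 1.5 times, and 80 to 87 of the 88 set apart were kept under each. With library size only, 7 higher and 23 lower gene models were set apart with a fragment in all libraries, against 11 and 22 with TMM. A filter of 10 CPM in 3 libraries left 70 called in the contrast, 29 set apart, 3 present or absent in Sam-07 alone and 20 set apart with a fragment in all libraries. Without Sam-07 replicate 2 it left 53 and 21. DESeq2 called 663, set 203 apart, including all 88, and 112 of these had a fragment in all libraries. Without Sam-07 replicate 2 DESeq2 called 888 and set 288 apart, with replicate 2 on the Sam-07 side in 59%. The 2-fold threshold gave 138 called, 62 set apart and 18 with a fragment in all libraries, and without Sam-07 replicate 2 it gave 79 and 29, with replicate 2 on the Sam-07 side in 96.6%. With the 6 other libraries as 1 group 92 were called. Asking for the contrast and for a 2-fold difference in both pairs gave 167, and asking for the same sign gave 214. At 5 CPM in place of 1 CPM, 8 of 21 were present or absent in Sam-07 alone. The causes of these changes were not tested.

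With each library left out, the contrast called 128 to 368, 45 to 126 were set apart, 12 to 27 were present or absent in Sam-07 alone, and 19 to 65 were set apart with a fragment in all libraries. The share beside another member ran from 6.06% to 20%, and that with 1 exon from 2.22% to 9.09%. Starting without Sam-07 replicate 2, the contrast called 41 to 1146, 13 to 281 were set apart, and replicate 2 was on the Sam-07 side in 45.6% to 95.5%. That side was read against every Niue and Palau 10 library, the left-out one included. Without Sam-07 replicate 2 and Palau 10 replicate 3, 1146 were called, 281 set apart, 30 present or absent in Sam-07 alone, 209 of the 281 with a fragment in all libraries, and 12.5% had 1 exon. For the 12 gene models named by rule, no sign changed and 216 of 223 recomputed calls were kept. The other 7 were lost under the replicate block described next.

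The replicate block left 13 called in the contrast and 7 set apart, 3 of them with a fragment in all libraries, 0 present or absent in Sam-07 alone, 0% beside another member and 14.3% with 1 exon. The block lost the calls of Taro_010789, Taro_044105, Taro_001041, Taro_006130, Taro_019470, Taro_044957 and Taro_030232, with adjusted p between 0.054 and 0.12 in edgeR's quasi-likelihood test. Their log2 fold changes stayed close, such as 10.29 against 10.3 for Taro_010789 and -12.95 against -12.6 for Taro_019470. Without Sam-07 replicate 2 the block left 0 called and 0 set apart in edgeR's quasi-likelihood test, with 1073 at an unadjusted p under 0.05. Nothing in the labels pairs libraries of 1 number, and the deviations of the same-numbered libraries from their group means correlated at over 0.1 in 3 of 7 pairs (r from -0.48 to 0.42), with 3 of 8 libraries closest to their own number. Depth limits gene models of low level: 1 fragment is worth 0.0468 CPM in the deepest library and 0.214 CPM in the shallowest.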
